A study of Mus musculus with 10 samples.

Results

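The genes described here encode the SREBP transcription factors and the proteins that hold, escort and cut them: *Srebf1*, *Srebf2*, *Scap*, *Insig1*, *Insig2*, *Mbtps1* and *Mbtps2*. They were taken by gene name from the table of bulk RNA-seq values of bEnd.3 cells, and all 7 were found among its 27024 rows with a gene name. The 7 genes were chosen by a rule that used measured values of the same StcE and saline samples, so their differences between the groups are given as a description. No p-value is given for them, and a count of them against the threshold used for all genes is not offered as a test. bEnd.3 cells, labelled wild type, are a line of immortalised mouse brain endothelium. StcE is a mucinase, a protease made by bacteria that cleaves heavily O-glycosylated mucin domains. RNA was taken from 5 samples given 5 nM StcE (replicates 1, 2, 3, 5 and 6) and 5 samples given the same volume of saline (replicates 1, 2, 3, 4 and 5). All 10 samples had grown in high-glucose medium with fetal bovine serum and were collected after 16 h. The experiment asked how brain endothelial cells respond to the loss of mucin-domain glycoproteins. The labels list 0 samples given an inactive enzyme, so cleavage of mucins and any other effect of the enzyme preparation cannot be told apart. They do not say whether replicates of this 1 cell line came from separate cultures, so the p-values below measure the spread between these samples, which may be technical.

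SREBPs are made as membrane proteins of the endoplasmic reticulum, where they are bound to the escort protein SCAP. When sterols are plentiful, SCAP is held there by the INSIG proteins. When sterols fall, the SCAP and SREBP complex moves to the Golgi, where the site proteases S1P (*Mbtps1*) and S2P (*Mbtps2*) release the part of SREBP that enters the nucleus and turns on genes of cholesterol and fatty acid synthesis and of lipoprotein uptake. *Insig1* and *Srebf2* are themselves known targets of SREBP, so the pathway carries both a brake and a positive loop.

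*Insig1* and *Srebf2* were higher with StcE in every sample, *Scap* was slightly lower, and the other 4 genes showed groups that overlapped. The stretches before the annotated starts of *Insig1* and *Srebf2* are printed because these were the genes with the large differences and both are textbook SREBP targets. They come from RefSeq on GRCm38.p6, are on the plus strand, run 5′ to 3′ and end at the base before the gene's start in the GENCODE annotation. Capitals mark exact matches to the core of the sterol element, the CCAAT box and the E-box only. Exact matches to the GC box GGGCGG, counted below, are left in lower case. In the *Srebf2* stretch, chr15:82147019-82147180, they mark the core of a sterol regulatory element (TCACCCCA) and a CCAAT box read on the opposite strand (ATTGG). In the *Insig1* stretch, chr5:28071162-28071362, they mark a CCAAT box on the opposite strand (ATTGG) and an E-box (CACGTG), a sequence that SREBPs can also bind.
Srebf2: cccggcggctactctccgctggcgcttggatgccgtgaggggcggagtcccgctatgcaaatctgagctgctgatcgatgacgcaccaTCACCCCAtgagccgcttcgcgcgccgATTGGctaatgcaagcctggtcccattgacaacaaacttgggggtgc
Insig1: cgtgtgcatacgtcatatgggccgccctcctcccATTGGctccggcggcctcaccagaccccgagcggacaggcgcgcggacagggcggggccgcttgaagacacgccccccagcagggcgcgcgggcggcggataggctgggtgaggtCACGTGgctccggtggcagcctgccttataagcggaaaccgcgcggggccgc

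Windows of 300 bases around each RefSeq start, 250 of them before it, were searched on both strands for exact letters, and all 7 genes matched, with 12 windows. The sterol regulatory element TCACNCCAC was in 1.24% of all 32817 windows and in those of 0 of the 7 genes. Its core without the last base, TCACNCCA, which was chosen after the sequences were seen, was in 4.36% of all windows and in that of *Srebf2*, where it began 162 bases before the start. The E-box CACGTG was in 7.15% of all windows and in those of *Insig1*, 101 bases before the start, and *Scap*. The CCAAT box, bound by NF-Y, which works beside SREBP at many sterol genes, was in 37.4% of all windows and in those of *Srebf1*, *Srebf2*, *Insig1* and *Insig2*. The GC box GGGCGG, bound by SP1, was in 35.6% of all windows and in those of 6 of the 7 genes, *Mbtps2* being the exception. The DR4 element (AGGTCA repeated after a gap of 4 bases), the form bound by LXR, was in 0.0152% of all windows and in those of 0 of the 7 genes. Exact matches were so rare that 0 of 7 says nothing on LXR sites near these genes. These shares are per window, whereas a gene was counted if any of its windows matched. Counted by gene, over 26994 genes, the sterol element was in 1.44%, its core in 4.97% and the E-box in 8.09%. The CCAAT box was in 41.0% of genes and the GC box in 38.2%. Matches to such short letters are a description of the windows and not a measurement of binding.

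**Figure D1:**
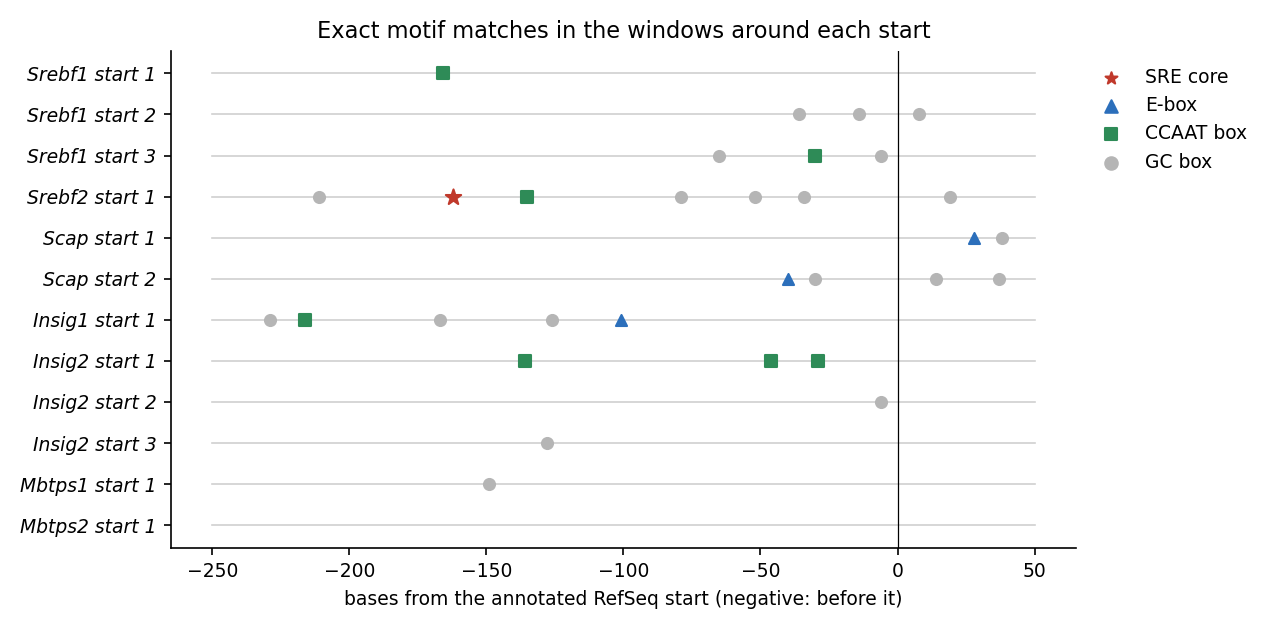
Exact motif matches in the 12 windows around the annotated starts of the 7 genes, by distance in bases from the RefSeq start (negative values lie before it). The core of the sterol element appeared in the window of *Srebf2*, and E-boxes appeared in those of *Insig1* and *Scap*.

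Values are FPKM, fragments per kilobase of gene, scaled between samples by the authors. Levels of genes of different length can be set side by side, but their order depends on the lengths used. Between 20834079 and 31575384 fragments per sample were recovered from the values, and each of the 7 genes came out as whole fragments in every sample. Fold changes are differences of mean log2(FPKM + 1), StcE minus saline. The added 1 understates changes, more so at low FPKM: *Abca1* had -0.77, where the log2 ratio of its means was -1.03. The threshold was a Benjamini-Hochberg adjusted p of 0.05 over the 11062 genes with a mean of at least 1 FPKM, from limma. In bulk RNA, fewer cells of a type and less RNA per cell cannot be told apart. Past the threshold, 6.41% of all genes tested were lower and 5.52% were higher. Of 12 endothelial markers, 5 were lower (*Tek*, *Tie1*, *Erg*, *Pecam1* and *Esam*) and 1 was higher (*Egfl7*) past the threshold. Their summed level was 2051 to 2200 FPKM with saline and 1992 to 2076 FPKM with StcE, and *Vwf* was the lowest at a mean of 1.42 and 1.14 FPKM. Markers of other brain cells matched 19 genes, of which 18 stayed under 1 FPKM in every sample and 0 were at 0 in every sample, and they summed to 1.64 to 2.03 FPKM with saline and 1.77 to 2.001 FPKM with StcE. The part of these markers in the differences below was not tested.

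The retention proteins come first because *Insig1*, which encodes the sterol-induced INSIG, showed the largest difference of the 7 genes. *Insig1* (ENSMUSG00000045294, 5:28071363-28078662, plus strand, gene models from GENCODE vM21 on GRCm38) stood at 13.9, 12.5, 13.5, 12.02 and 13.0 FPKM in saline replicates 1 to 5. With StcE it stood at 39.7, 36.1, 37.0, 37.5 and 37.2 FPKM in replicates 1, 2, 3, 5 and 6. The lowest StcE sample was far above the highest saline sample, and neither group held a sample apart from the rest. The means were 13.0 ± 0.742 FPKM (SD, n = 5) with saline and 37.5 ± 1.33 FPKM (SD, n = 5) with StcE, a ratio of means of 2.89. The log2 fold change was 1.46 (SE 0.0383), which ranked 3 from the highest of the 11062 genes tested. Between 853 and 4065 fragments per sample lay behind these values. A copy of at least 95% identity in another annotated gene, *Gm37784*, covered 7.01% of the *Insig1* transcript.

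*Insig2* encodes the other INSIG, whose transcript is known as less dependent on sterols and as regulated by insulin in liver. *Insig2* (ENSMUSG00000003721, 1:121304353-121332589, minus strand) was at 7.96, 7.54, 8.09, 7.93 and 8.41 FPKM with saline and at 8.26, 7.99, 7.70, 7.71 and 9.21 FPKM with StcE. The groups overlapped, and StcE replicate 6 was the highest of the 10 samples. Means were 7.99 ± 0.314 FPKM with saline and 8.17 ± 0.624 FPKM with StcE (SD, n = 5 each). The log2 fold change was 0.03 (SE 0.0452), with a 95% interval from -0.07 to 0.13, and without StcE replicate 6 it was -0.01. The paralogs thus differed in their values: *Insig1* was 2.89 times as high with StcE and *Insig2* 1.02 times as high.

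The *Insig1* to *Insig2* ratio within each sample was 1.52 to 1.74 with saline and 4.04 to 4.87 with StcE. Its mean went from 1.63 ± 0.0942 to 4.61 ± 0.346 (SD, n = 5 each). *Insig1* made up 61.9% ± 1.37 of the summed INSIG level with saline and 82.1% ± 1.17 with StcE (SD, n = 5 each). The sum itself was 21.0 ± 0.892 FPKM with saline and 45.7 ± 1.53 FPKM with StcE (SD, n = 5 each), so nearly all of the added INSIG transcript was *Insig1*.

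*Srebf2* encodes SREBP2, the factor most tied to cholesterol synthesis. *Srebf2* (ENSMUSG00000022463, 15:82147181-82205379, plus strand) read 18.8, 17.1, 17.7, 18.2 and 17.3 FPKM in the saline samples. It read 27.9, 30.7, 28.1, 30.6 and 30.8 FPKM in the StcE samples. The lowest StcE sample again exceeded the highest saline sample. The means were 17.8 ± 0.664 FPKM with saline and 29.6 ± 1.49 FPKM with StcE (SD, n = 5 each), a ratio of 1.66. The log2 fold change of 0.70 (SE 0.0369) ranked 32 from the highest. Fragments behind each value numbered 2991 to 7688, and no copy of the transcript was found in another annotated gene.

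*Srebf1* encodes SREBP1, whose isoforms start at separate promoters and favour fatty acid genes. *Srebf1* (ENSMUSG00000020538, 11:60199089-60222581, minus strand) had 19.8, 18.3, 18.96, 20.3 and 18.5 FPKM with saline and 19.9, 21.0, 19.7, 22.2 and 21.7 FPKM with StcE. The groups overlapped: StcE replicates 1 and 3 fell within the saline range, and the other 3 lay above it. Means were 19.2 ± 0.874 and 20.9 ± 1.10 FPKM (SD, n = 5 each). On the log2 scale the difference was 0.12 (SE 0.0398), with a 95% interval from 0.03 to 0.20. That interval is not adjusted for the number of genes tested, and *Srebf1* did not pass the threshold in the main fit. Over 23 alternative settings the difference ranged from 0.10 to 0.14. Since the table has 1 value per gene, the isoforms could not be told apart.

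In FPKM, the balance between the factors moved from near equal to an excess of *Srebf2*. The *Srebf2* to *Srebf1* ratio was 0.893 to 0.947 in the saline samples and 1.38 to 1.46 in the StcE samples. In means it was 0.930 ± 0.0211 with saline and 1.42 ± 0.0323 with StcE (SD, n = 5 each). By this measure *Srebf1* was the higher of the pair in all 5 saline samples, and *Srebf2* was the higher in all 5 StcE samples. The saline order rests on the gene lengths, 5634 bases for *Srebf1* and 7184 for *Srebf2*. In fragments, *Srebf2* was the higher in all 5 saline samples as well (2991 to 4105, against 2533 to 3399 for *Srebf1*). The summed level of both was 37.0 ± 1.48 FPKM with saline and 50.5 ± 2.52 FPKM with StcE, and the *Srebf2* share was 48.2% ± 0.573 and 58.6% ± 0.551 (SD, n = 5 each).

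**Figure D2:**
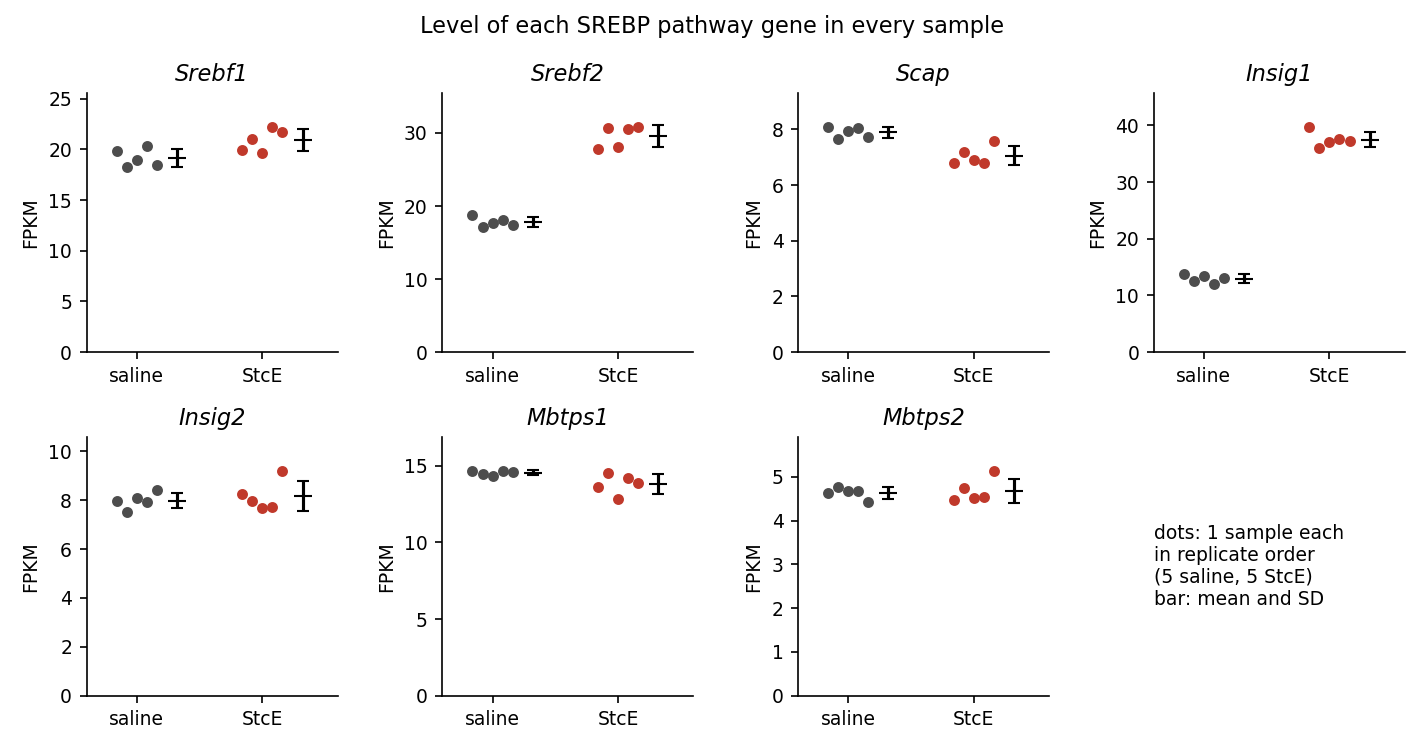
FPKM of each gene in every sample, saline in grey and StcE in red, with the mean and SD beside the dots (n = 5 each). *Insig1* and *Srebf2* sat higher in all StcE samples, *Scap* sat slightly lower, and the groups of the other genes overlapped.

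*Scap* encodes the sterol-sensing escort that carries SREBP to the Golgi, and it went the other way. *Scap* (ENSMUSG00000032485, 9:110333288-110384950, plus strand) was at 8.08, 7.64, 7.94, 8.04 and 7.74 FPKM in the saline samples and at 6.80, 7.17, 6.91, 6.79 and 7.59 FPKM in the StcE samples. The highest StcE sample, replicate 6, came just under the lowest saline sample, replicate 2, so the groups did not overlap but nearly touched. Means were 7.89 ± 0.191 and 7.05 ± 0.341 FPKM (SD, n = 5 each), and the mean FPKM dropped by 10.6%. On the log2 scale the difference was -0.14 (SE 0.0328). Over the same alternative settings it ranged from -0.17 to -0.13. An opposite-strand gene, *5830462I19Rik*, shares 13.2% of the *Scap* exon length and was at most 0.0820 FPKM in any sample. Whether the authors' counting used strand is not given in the sources used here.

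Relative to the escort, transcripts of its cargo and of its anchor were more abundant with StcE. The *Srebf2* to *Scap* ratio was 2.26 ± 0.0385 with saline and 4.201 ± 0.192 with StcE, and the *Insig1* to *Scap* ratio was 1.65 ± 0.0899 and 5.33 ± 0.379 (SD, n = 5 each). Neither ratio overlapped between the groups. These are ratios of transcript levels, and protein was not measured in these samples.

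The site proteases differed little. *Mbtps1* (ENSMUSG00000031835, 8:119508156-119558735, minus strand), whose product S1P makes the first cut in SREBP, was at 14.7, 14.5, 14.4, 14.7 and 14.6 FPKM with saline and at 13.6, 14.5, 12.9, 14.2 and 13.9 FPKM with StcE. Of the StcE samples, 4 lay below the saline range and replicate 2 lay inside it. On the log2 scale the difference was -0.07 (SE 0.0303), with a 95% interval from -0.14 to -0.01. That interval is not adjusted for the number of genes tested, and *Mbtps1* did not pass the threshold. *Mbtps2* (ENSMUSG00000046873, X:157535371-157598715, minus strand), whose product S2P makes the second cut, within the membrane, was at 4.63, 4.78, 4.68, 4.68 and 4.42 FPKM with saline and at 4.47, 4.74, 4.53, 4.55 and 5.14 FPKM with StcE. Here 4 of the StcE samples lay inside the saline range, and replicate 6 lay above it. The log2 fold change was 0.01 (SE 0.0372), with a 95% interval from -0.07 to 0.09, and its sign turned without StcE replicate 6 (-0.02) or without saline replicate 5 (-0.0030). *Yy2*, a gene on the same strand not analysed here, shares 28.4% of the *Mbtps2* exon length. The *Mbtps1* to *Mbtps2* ratio was 3.14 ± 0.107 with saline and 2.95 ± 0.177 with StcE (SD, n = 5 each), and its ranges overlapped.

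As a description, 3 of the 7 genes were past the threshold, where 11.9% of all genes tested did. *Insig1* and *Srebf2* were the higher ones (5.52% of all genes were called higher), and *Scap* was the lower one (6.41% were called lower). The groups did not overlap for the same 3 genes, as for 10.7% of all genes: StcE lay above saline for *Insig1* and *Srebf2* (4.85% of all genes) and below it for *Scap* (5.8%). Over the 23 alternative settings, 2 to 4 of the 7 genes passed. The call of *Scap* was lost with the replicate block on 8 samples, and *Srebf1* passed with total fragment scaling and with voom. As the genes were chosen with this contrast known, nothing is read from these counts.

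**Figure D3:**
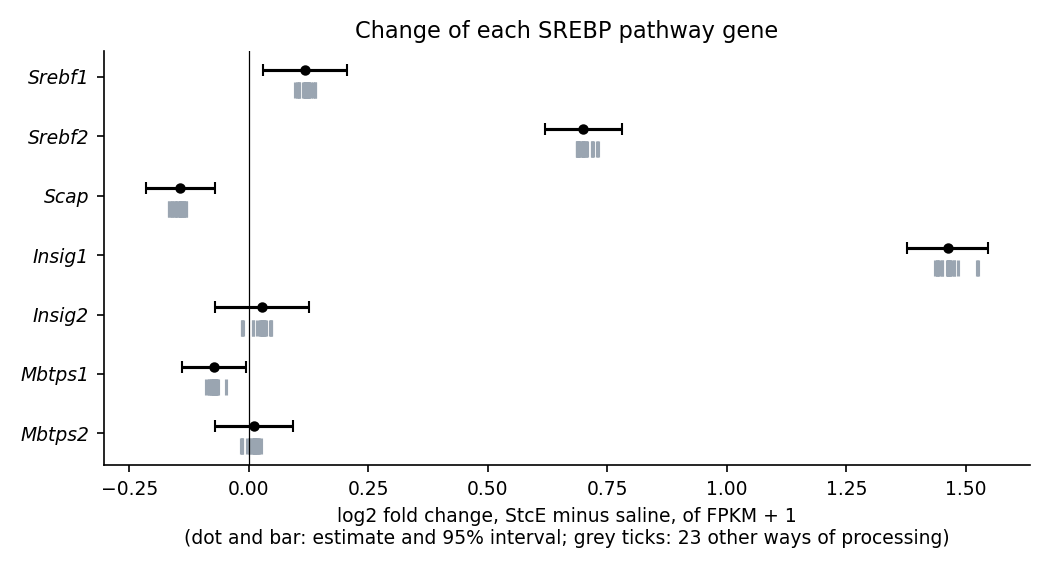
Log2 fold change of FPKM + 1, StcE minus saline, for each gene, with its 95% interval from limma (dot and bar) and its value under 23 other ways of processing (grey ticks). *Insig1* ranged from 1.44 to 1.52 and *Srebf2* from 0.69 to 0.73, whereas the ticks of *Insig2* and *Mbtps2* lay on both sides of 0.

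The order of the levels in FPKM, which depends on the gene lengths used, also changed. With saline it ran from *Srebf1* through *Srebf2*, *Mbtps1*, *Insig1*, *Insig2* and *Scap* to *Mbtps2*. The ranges of *Srebf1* and *Srebf2* overlapped in that order, as did those of *Insig2* and *Scap*, and the other neighbours did not overlap. With StcE *Insig1* led, followed by *Srebf2*, *Srebf1*, *Mbtps1*, *Insig2*, *Scap* and *Mbtps2*, and no neighbours overlapped. *Insig1* thus moved from the fourth place to the first, and *Srebf1* and *Srebf2* exchanged their order.

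The spread within a group was small for all 7 genes. The coefficient of variation ran from 0.943% (*Mbtps1*) to 5.71% (*Insig1*) with saline and from 3.54% (*Insig1*) to 7.63% (*Insig2*) with StcE. It was larger with StcE for each gene but *Insig1*. Counting error alone would give 1.59% to 3.75% with saline and 1.29% to 3.51% with StcE. For *Mbtps1*, *Scap* and *Mbtps2* the saline samples differed by no more than that counting error, and for *Srebf2* with StcE the spread of 5.03% was well above its counting error of 1.29%. Among the StcE samples, replicate 6 held the highest value of *Srebf2*, *Insig2*, *Scap* and *Mbtps2*, and replicate 1 held the highest value of *Insig1*.

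**Figure D4:**
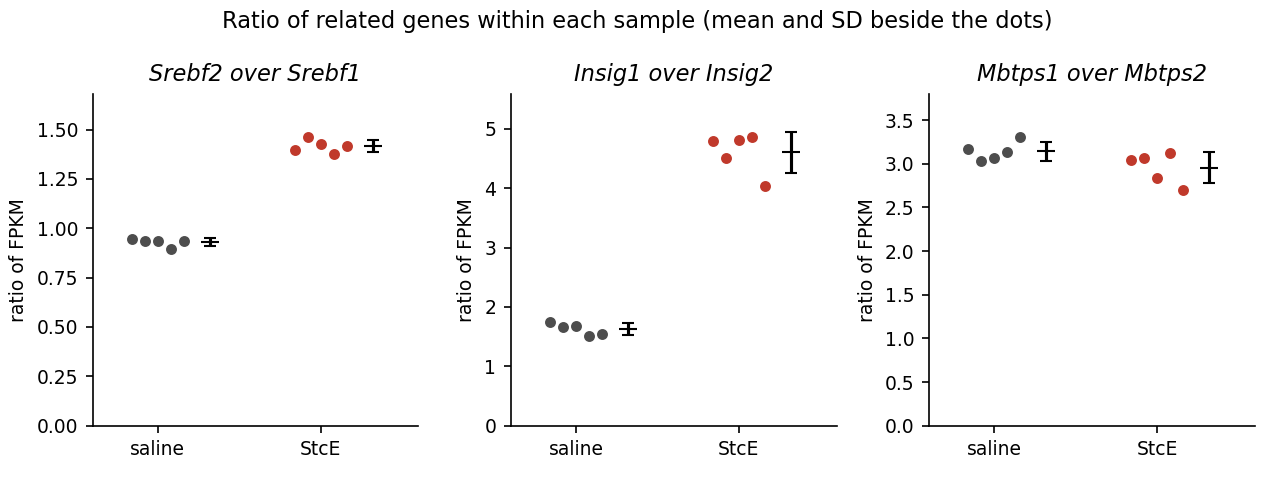
Ratios of FPKM between related genes within each sample, with the mean and SD beside the dots (n = 5 each). The *Srebf2* to *Srebf1* and *Insig1* to *Insig2* ratios were higher in all StcE samples, whereas the *Mbtps1* to *Mbtps2* ratio overlapped between the groups.

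The genes most like *Insig1*, *Srebf1* and *Srebf2* over the 10 samples were sought by Pearson's r of log2(FPKM + 1). They are given as a description, since all genes were measured in the same libraries and the same pair of conditions. For *Insig1* they were *Msmo1* (r = 0.996) and *Cyp51* (0.994), enzymes of the sterol-demethylation steps, and *Stard4* (0.994), a cholesterol carrier. For *Srebf2* they included *Fads1* (0.990), a fatty acid desaturase. For *Srebf1* they were *Brpf1* (0.932), *Nhlrc3* (0.923) and *Tcf20* (0.923), none of them on the lists of lipid genes used here.

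Downstream of SREBP, most enzymes of cholesterol synthesis rose with *Insig1* and *Srebf2*. Of 22 listed, 20 were tested and 18 were higher and 0 lower, with a median log2 fold change of 0.75 beside -6.6e-04 over all genes tested. For this list and those after it, the shares over all genes tested were 5.52% higher and 6.41% lower. Adding 0.1 instead of 1 to the FPKM gave a median of 0.88 for the cholesterol list. *Ggps1* (0.06) and *Ebp* (0.05) did not pass, and *Fdps* and *Tm7sf2* were under the minimum. *Cyp51* (1.57), *Msmo1* (1.49), *Idi1* (1.41) and *Hmgcs1* (1.20) had the log2 fold changes given, beside the 1.46 of *Insig1*. The adjusted p of these 4 genes from limma ran from 6.2e-11 to 4.8e-08. The gene lists were chosen with earlier results of these data known, so p-values of their genes here and below are a description.

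Of 9 genes of sterol uptake and transport, 7 were tested, 5 were higher and 0 lower (median 0.32). Among them *Stard4* rose from 17.3 ± 0.163 to 25.5 ± 0.349 FPKM (SD, n = 5 each, limma adjusted p = 9.2e-09), and *Tmem97* (0.38) and *Lrp8* (0.32) rose by less. *Npc1* (-0.10) and *Npc2* (0.05), which export cholesterol from lysosomes, did not pass. The fatty acid targets, more often assigned to SREBP1, gave 10 higher and 0 lower of 14 tested (median 0.24). With the replicate block on 8 samples 6 passed, beside 7 on the same samples without it. With voom 6 passed and the median was 0.13. Voom was run only on the 10430 genes recovered as whole fragments, so it may have covered fewer than 14 of the list. In the main fit *Fads2* (0.86), *Scd1* (0.85), *Elovl6* (0.65) and *Scd2* (0.51) led the fatty acid targets. *Fasn* rose by 0.27 with groups that overlapped (limma adjusted p = 0.0106). *Srebf1* itself had a log2 fold change of 0.12, below the median of that list.

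LXR, which sterols activate and which is known to induce *Srebf1*, had 0 of 10 tested receptors and targets higher and 5 lower (median -0.10). *Abca1*, a cholesterol exporter, fell from 4.03 ± 0.514 to 1.98 ± 0.503 FPKM (SD, n = 5 each, limma adjusted p = 0.00124). *Abcg1* (-0.37), *Rxra* (-0.28), *Smpdl3a* (-0.27) and *Arl4c* (-0.11, limma adjusted p = 0.0499) were the other 4. Under 17 of the 23 alternative settings the list had 4 or fewer genes lower. *Srebf1* had the opposite sign to these 5 genes (0.12). Of the 10 tested, 2 also had positive log2 fold changes, up to 0.24, and did not pass.

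For the machinery that handles the 7 proteins after synthesis, counts are set beside the 5.52% higher and 6.41% lower of all genes tested. Of 16 genes of the machinery that degrades INSIG and its clients, 0 were higher and 1 lower (median -0.03): *Rnf145*, a ubiquitin ligase known to act on SCAP, at -0.15 (limma adjusted p = 0.0414). Of the 12 COPII genes that carry SCAP from the endoplasmic reticulum, 0 were higher and 1 was lower (median -0.03), *Sec24c* at -0.07 (limma adjusted p = 0.0474). A single call among 16 or 12 genes is near that background, and the calls were lost under 13 (degradation) and 15 (COPII) of the 23 alternative settings. Among 6 tested partners of SCAP and the proteases, such as *Hspa5*, limma called 0 higher and 0 lower (unadjusted p under 0.05 for 0 of them, and 0 calls under all 23 alternatives).

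The proteases also cut other membrane-bound factors. Of 8 tested substrates besides SREBP, 0 were higher and 2 lower (median -0.02), *Creb3l2* at -0.19 (limma adjusted p = 0.00791) and *Atf6b* at -0.17 (limma adjusted p = 0.00304). *Atf6*, a sensor of the unfolded protein response, was at 15.2 ± 0.592 and 15.3 ± 0.982 FPKM (SD, n = 5 each). Of 20 tested genes whose products act with nuclear SREBP or degrade it, 1 was higher and 0 lower (median -0.02). That gene was *Lpin1* (0.21, limma adjusted p = 0.0139), which restrains nuclear SREBP and is also one of its targets, and *Fbxw7*, which marks nuclear SREBP for degradation, had 0.09 (limma adjusted p = 0.172).

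**Figure D5:**
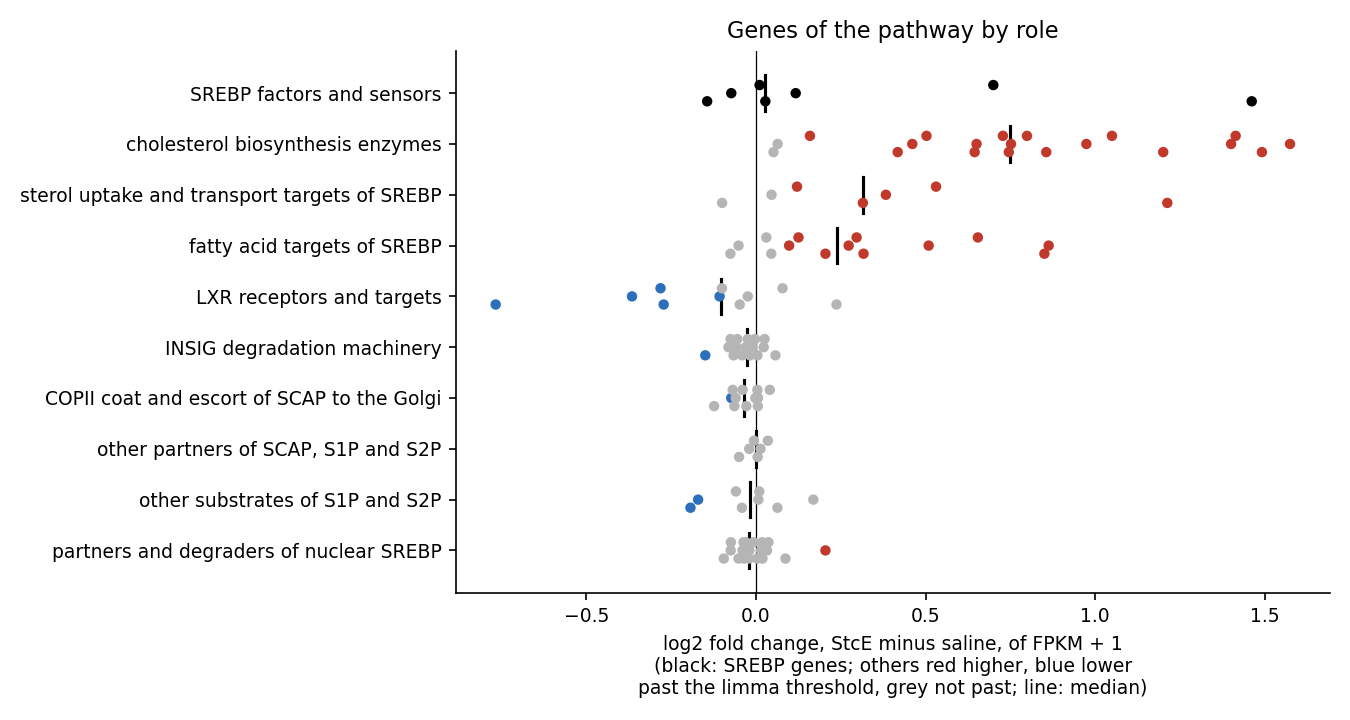
Log2 fold change of FPKM + 1, StcE minus saline, of every tested gene by role, with black for the SREBP genes, red for genes higher and blue for genes lower past the limma threshold, grey for the rest and a line at each median. The 3 lists of SREBP targets had medians of 0.75, 0.32 and 0.24, LXR genes had -0.10, and the other lists lay close to 0.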

How the data were processed

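Poly-adenylated RNA of bEnd.3 cells was made into directional libraries. Per the submitters' processing notes, the authors used HISAT2 2.0.5, featureCounts 1.5.0-p3 and DESeq2 1.32.0 with mm10, and the deposited table holds FPKM per sample. A further 22874 rows were empty. Gene lengths from GENCODE vM21 were used to recover whole fragments, and 96.6% of values were whole within 0.05. The recovered scale followed the median-ratio size factor (range 0.0847%) and not the total (2.65%). As FPKM are not counts, log2(FPKM + 1) was fitted with limma 3.58.1 in R 4.3.3 (lmFit, eBayes with trend, condition alone) for genes with a mean of at least 1 FPKM, with Benjamini-Hochberg adjustment. The procedure was tested on simulated data. Copies were sought with BLAST 2.17.0 (at least 95% identity over 150 bases). The 95% intervals come from limma, rest on the spread between samples and are not adjusted for the number of genes tested. Counting errors come from the fragments alone.

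The members, gene lists and settings were chosen with earlier results of these data known. Named genes were the 7 members, up to 4 called genes per list with the largest change, *Hmgcs1*, *Fasn*, *Scd1*, *Abca1*, *Atf6*, *Fbxw7* and, for *Insig1*, *Srebf1* and *Srebf2*, the 3 most alike genes. Results of some genes under this rule are not reported here. *Ggps1*, *Ebp*, *Fdps*, *Tm7sf2*, *Npc1*, *Npc2*, *Arl4c*, *Hspa5*, *Pecam1*, *Esam* and *Vwf* fall outside this rule and were picked once their values were known. The first 21 alternative settings covered the pseudocount, the minimum, the scaling, the moderation, array weights, a replicate block and leaving out each sample, and 2 more (scaling by total fragments and voom) were added after seeing the data. Motifs were sought in RefSeq windows of GRCm38.p6.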

Additional observations from a re-analysis of the deposited data

Results flagged for a closer look

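Each group of 5 samples was checked for a highest or lowest sample far from the rest, for the 37 named genes. Of 74 groups, 1 held such a sample, where chance gives about 1 in 20 (3.7). *Tie1*, an endothelial receptor and one of the cell type markers, was at 125.9 FPKM in saline replicate 5 and at 135.4 to 139.0 FPKM in the other saline samples. Among the 14 groups of the 7 SREBP genes, 0 held a sample apart.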

How the results depend on the processing

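*Insig1* (1.44 to 1.52) and *Srebf2* (0.69 to 0.73) had these ranges of log2 fold change over the 23 alternatives, and *Scap* -0.17 to -0.13, given as a description. Replicates carrying the same number did not deviate together (correlations from -0.0966 to 0.0539 over 4 shared numbers). The values thus showed no pairing by number, though 4 correlations are too few to settle it. With the replicate block, on 8 samples, 352 genes passed and *Scap* had -0.16 without passing. In that fit *Insig2* had -0.013 and *Mbtps2* -0.015, the same values as without a block, and the lists gave 6 fatty acid genes, 3 LXR genes and 0 each of the degradation, COPII, other substrate and nuclear partner genes. The same 8 samples without a block gave 7 fatty acid genes, 4 LXR genes and 2 other substrates. They gave 0 each of the degradation, COPII and nuclear partner genes. Without a filter on low values 801 of 27024 genes passed, and with equal FPKM sums 790 did, of which 65.6% were lower, beside 53.7% of the 1320 genes of the report. *Srebf1* had 0.13 under scaling by total fragments and 0.12 with voom, and passed in both. Voom gave 6 fatty acid genes among the 10430 genes it covered. Leaving out single samples gave 793 (without StcE replicate 3) to 1257 genes, with 837 without saline replicate 1. In those fits *Insig2* ranged from -0.011 to 0.047 and *Mbtps2* from -0.017 to 0.025, and the degradation and COPII lists gave 0 to 1 gene each. The degradation list also gave 0 with a minimum of 0.1 FPKM, no filter, no trend and array weights. The COPII list gave 2 with array weights and 0 with a minimum of 0.1 FPKM, equal sums, upper quartile or total fragment scaling, no trend and a robust trend. The cause was not tested. Between 632 and 7688 fragments lay behind each SREBP gene in a sample. Counting error, averaged over the 5 samples of a group, was at most 3.75%. The 5 samples per group and their spread limit the differences of *Insig2*, *Mbtps1* and *Mbtps2*.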
